A study of Mus musculus with 48 samples.

Results

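DNA methylation in the amygdala was compared between undisturbed male mice with 1 inactivated Tph2 allele (Tph2+/-) and undisturbed male mice with both alleles intact (Tph2+/+). Of the 48 libraries of the study, which cover 6 groups of 8 given by Tph2 genotype and rearing, the 16 libraries of the groups Tph2+/- C and Tph2+/+ C were compared, and all 187695 loci of the count table were tested. A locus is a peak of captured DNA on the GRCm38 mouse assembly, with a median width of 916 bp. The question was which loci carry more or less methylated DNA when 1 of the 2 alleles is inactive and no early-life stress is given.

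All 16 mice had a C57BL/6 background by the labels, given as C57BL/6N in the methods of the study, and were 4 months old. The control condition (C) means that litters stayed with the dam, in contrast to maternal separation (MS), in which pups were taken from the dam daily during early postnatal life. Beside the 16 libraries, values are given for Tph2+/- MS, Tph2+/+ MS and Tph2-/- C, where Tph2-/- mice have both alleles inactivated. These mice were also 4 months old, and by the methods of the study they were males of the same line. The Tph2 allele is inactivated from conception and in every cell of the body, and the mice came from matings of heterozygous parents, so some may be littermates. Litters are not given in the labels, and p-values count each mouse as independent. The adult males had been through behavioral tests before tissue was taken. Amygdalae of both hemispheres were pooled per mouse, so a change in the mix of cells and a change within cells cannot be told apart, and captured DNA does not allow the tissue to be checked against expression markers.

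Tph2 encodes tryptophan hydroxylase 2, the rate-limiting enzyme of serotonin (5-HT) synthesis in neurons. The neurons that use it lie in the raphe nuclei of the brainstem, which send dense 5-HT fibers to the amygdala, a region that processes threat and social signals. In mammals DNA methylation sits mainly on the cytosine of CpG pairs. A methyl-CpG-binding domain (MBD) protein captures DNA fragments that carry methylated CpG, and the reads counted at a locus measure how much of its DNA was captured. A lower count can come from less methylation or from fewer copies of the sequence in the genome, and the assay does not tell these apart.

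Only 2 loci passed an adjusted p of 0.05, and both lay about 3 Mb from Tph2 on the same chromosome. They were in a cluster of near-identical pseudogenes between Il22, the gene of the cytokine interleukin 22, and Gm9049. Their sequences are shown because they carry the result and because the cluster holds the same letters more than once. Each sequence below is the stretch of 200 bases with the most CpG in its locus, or the matching stretch of the partner locus, taken from the reference assembly on the strand of the pseudogene, 5′ to 3′, with every CpG in capitals.
The locus chr10:118240183-118241196 spans the start of the pseudogene Gm32717, and its stretch chr10:118240670-118240869 on the minus strand holds 13 CpG:
Gm32717 start: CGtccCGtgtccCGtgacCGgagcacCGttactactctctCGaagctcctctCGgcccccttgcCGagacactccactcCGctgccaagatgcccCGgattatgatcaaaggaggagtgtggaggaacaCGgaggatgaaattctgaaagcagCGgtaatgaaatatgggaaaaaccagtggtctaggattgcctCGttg
The partner locus chr10:118258290-118259228 spans the start of the pseudogene Gm32802, and its stretch chr10:118258599-118258798 on the plus strand has 0 differences:
Gm32802 start: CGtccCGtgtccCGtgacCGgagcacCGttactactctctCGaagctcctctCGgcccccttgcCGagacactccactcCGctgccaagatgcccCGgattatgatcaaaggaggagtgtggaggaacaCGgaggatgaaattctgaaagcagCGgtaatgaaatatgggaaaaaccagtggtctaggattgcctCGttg
The locus chr10:118259603-118260692 lies in the exon of Gm32802, and its stretch chr10:118260077-118260276 on the plus strand holds 11 CpG:
Gm32802 exon: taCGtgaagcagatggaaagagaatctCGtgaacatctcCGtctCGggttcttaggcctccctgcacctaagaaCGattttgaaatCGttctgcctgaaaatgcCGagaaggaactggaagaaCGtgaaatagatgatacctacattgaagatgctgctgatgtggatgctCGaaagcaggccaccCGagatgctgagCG
Its partner is the locus chr10:118238775-118239834 in the exon of Gm32717, with the stretch chr10:118239192-118239391 on the minus strand, again with 0 differences:
Gm32717 exon: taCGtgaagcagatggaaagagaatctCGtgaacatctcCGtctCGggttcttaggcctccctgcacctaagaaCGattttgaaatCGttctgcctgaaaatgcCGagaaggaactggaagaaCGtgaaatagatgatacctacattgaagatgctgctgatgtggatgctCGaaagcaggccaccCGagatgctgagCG

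Gm32717 and Gm32802 face each other as mirror images. From Il22 onward the RefSeq annotation places Gm9585, Gm32717 and Gm9029 on the minus strand, then Gm9030, Gm32802 and Gm9035 on the plus strand, then Iltifb, a second interleukin 22 type cytokine gene, and then Gm9040, Gm9044, Gm9045, Gm9046, Gm9048 and Gm9049 one after another on the minus strand. All 12 Gm genes are pseudogenes. Of these, 10 aligned over 100% of the 2409 coding bases of Cdc5l, the gene of a splicing factor on chromosome 17, with 97.6 to 97.9% identity, and the exceptions were Gm9585 and Gm9035. Of the 31 loci from Il22 to Gm9049, 29 had another stretch of at least 95% identity over at least 50% of their length in the reference, including all 7 loci past the study limits. Reads from these copies can be placed on the wrong copy, so counts and p-values of single copies are uncertain. Single loci are given below, and the copies are also described together.

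At the Gm32802 exon locus the Tph2+/+ C libraries had 3.01 CPM at the lowest, 5.20 at the median and 7.61 at the highest, where CPM is the count relative to the TMM-scaled size of the library. The Tph2+/- C libraries had 1.63, 2.55 and 3.27 CPM. The ranges overlapped, and 7 of the 8 heterozygous libraries lay under the lowest wildtype library. The log2 fold change (log2FC, Tph2+/- against Tph2+/+) was -1.003 with a standard error (SE) of 0.18, and the adjusted p (quasi-likelihood test of edgeR, adjusted over all loci after Benjamini and Hochberg) was 0.0259.

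At the Gm32717 start locus the lowest, median and highest values were 3.08, 4.97 and 6.65 CPM in Tph2+/+ C and 0.390, 2.23 and 4.27 CPM in Tph2+/- C. Here, too, 7 of 8 heterozygous libraries were under every wildtype library. The log2FC was -1.06 (SE 0.19, edgeR adjusted p = 0.0411). These were the only 2 loci at this limit, 0.00107% of those tested, while 7095 loci (3.78%) had an unadjusted p under 0.05. The calls did not hold in every setting. DESeq2 gave adjusted p-values of 0.0645 and 0.151 and limma voom 0.475 for both, with log2FC between -0.96 and -1.11. In the edgeR fit neither locus passed in 8 of the 16 fits that left out 1 library, where the adjusted p reached 0.387 at the Gm32802 exon locus (without Tph2+/+ C replicate 5) and 0.467 at the Gm32717 start locus (without Tph2+/+ C replicate 4). Without the libraries numbered S42 and later, which leaves 6 against 6, the edgeR adjusted p-values were 1 and 0.923, with log2FC of -0.92 and -0.98.

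The partner loci were lower as well. Reads of near-identical sequence can be placed on either partner, so these values are no separate result. The Gm32802 start locus had 1.76, 4.18 and 5.76 CPM in Tph2+/+ C and 1.69, 2.32 and 2.95 CPM in Tph2+/- C (log2FC -0.83, SE 0.19, unadjusted p = 2.36e-05 in the edgeR fit). At the Gm32717 exon locus the values were 2.94, 4.82 and 6.34 CPM against 2.45, 3.22 and 4.51 CPM (log2FC -0.60, SE 0.16, unadjusted p = 3.93e-04 in the edgeR fit). Both reached the limits that the study set for a changed locus, an unadjusted p under 0.01 with a log2FC beyond 0.2, without reaching the adjusted limit.

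Over the 13 loci within 1000 bp of the 6 mirrored pseudogenes Gm9585 to Gm9035, every log2FC was negative, with a median of -0.63 and a range from -1.06 to -0.05. These loci share sequence and are not independent of each other. The block was chosen after these values were seen, and it holds both loci at the adjusted limit. Its shares therefore describe the block and are no test of it. Of all loci, 48.7% were lower in Tph2+/- C. Of the 13 loci, 9 had an unadjusted p under 0.05 with lower counts, against 1.87% of all loci, and 5 were past the study limits, against 0.678% of all loci. Their summed CPM was 33.3, 50.2 and 52.4 (lowest, median, highest) in Tph2+/+ C and 29.2, 33.01 and 35.4 in Tph2+/- C. The heterozygous median was 65.7% of the wildtype median.

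The 8 heterozygous libraries lay close together in this sum, while 1 wildtype library stood apart. Tph2+/+ C replicate 2 had 33.3 CPM, within the range of the heterozygous libraries, and the other 7 wildtype libraries had 47.8 to 52.4 CPM. Its total of 12.7 Mcounts was the highest of its group, and its summed CPM at Tph2 (38.1) lay within the range of the others. Without it the median log2FC of the 13 loci was -0.74, 9 of them passed the study limits, and the edgeR adjusted p-values of the Gm32802 exon and Gm32717 start loci were 0.00404 and 0.0112. Over all 16 fits that left out 1 library, the edgeR adjusted p ranged from 0.00404 to 0.387 at the first and from 0.00178 to 0.467 at the second. What sets this library apart was not tested.

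**Figure D1:**
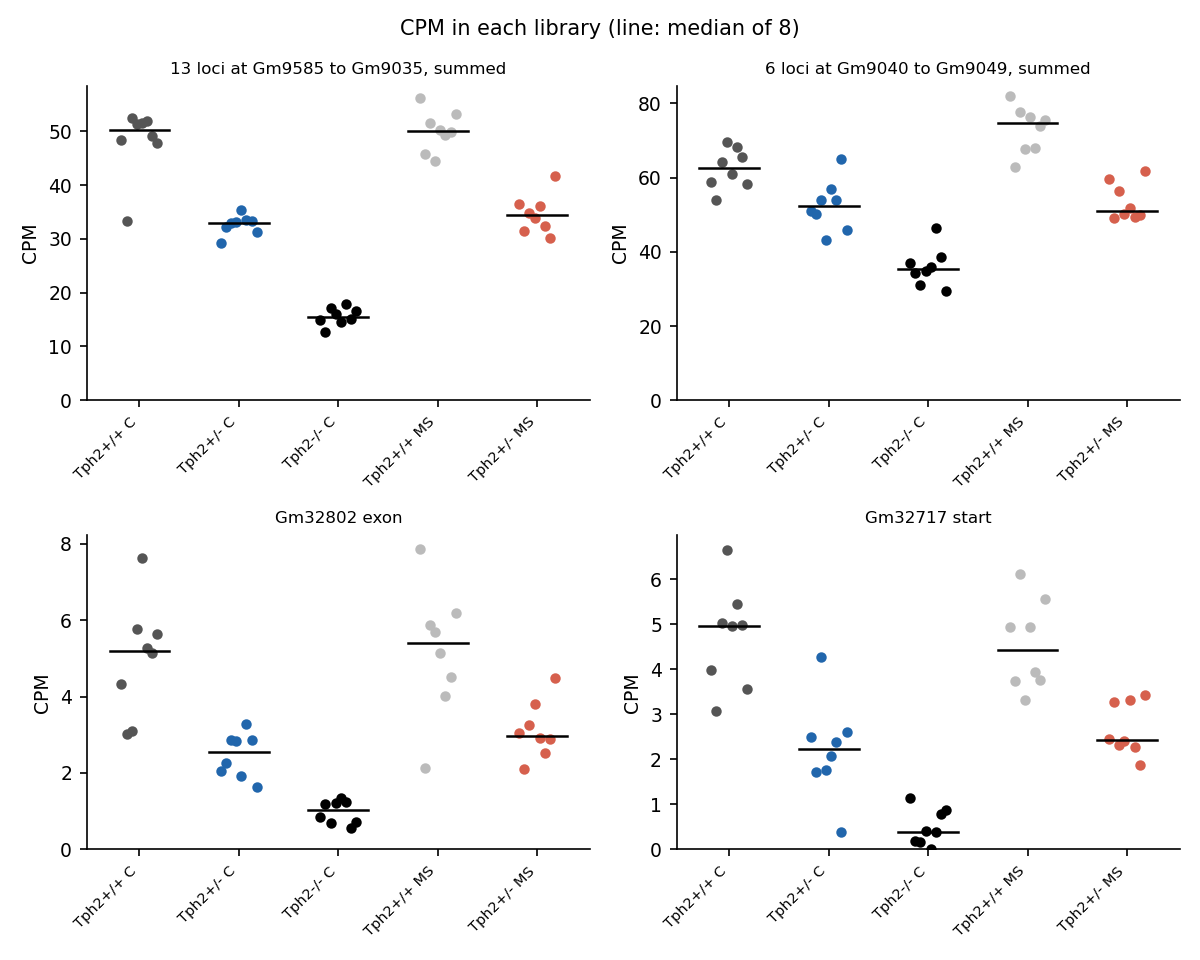
CPM per library (y axis, from 0) in the groups on the x axis, for the 13 loci at Gm9585 to Gm9035 summed, the 6 loci at Gm9040 to Gm9049 summed, the Gm32802 exon locus and the Gm32717 start locus; points are the 8 mice of a group and lines are medians. In the first panel all 8 Tph2+/- C libraries lie between 29.2 and 35.4 CPM, above the Tph2-/- C libraries (12.7 to 17.97) and below 7 of 8 Tph2+/+ C libraries.

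At the tandem pseudogenes Gm9040 to Gm9049 all 6 loci had a negative log2FC, with a median of -0.23, where 48.7% of all loci were lower. Of the 6 loci, 3 had an unadjusted p under 0.05, against 1.87% of all loci in this direction, and 2 were past the study limits, against 0.678%. This set, too, was chosen after its values were seen. Gm9046, whose locus holds 83 CpG, had 10.5, 14.1 and 15.4 CPM in Tph2+/+ C and 8.63, 10.4 and 11.8 CPM in Tph2+/- C (log2FC -0.41, SE 0.12, unadjusted p = 6.81e-04 in the edgeR fit). Gm9048 was the other (log2FC -0.38, SE 0.12). The stretch of Gm9046 with the most CpG (chr10:118343158-118343357, minus strand) reads
Gm9046 start: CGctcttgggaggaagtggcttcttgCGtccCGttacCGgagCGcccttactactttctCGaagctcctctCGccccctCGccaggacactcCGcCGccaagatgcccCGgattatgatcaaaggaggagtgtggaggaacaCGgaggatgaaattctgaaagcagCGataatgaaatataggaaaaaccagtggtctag

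The cytokine genes on both sides of the mirrored block had smaller values. Of the 4 loci that overlap Il22 or Iltifb, 0 had an unadjusted p under 0.05 in the edgeR fit and the log2FC ran from -0.27 to 0.03. Over all 12 loci of the cluster outside the pseudogenes the median log2FC was -0.09, with 0 past the study limits and 2 with an unadjusted p under 0.05. Cdc5l itself had 1 locus, in a coding exon, with a log2FC of 0.04 (SE 0.22, unadjusted p = 0.844 in the edgeR fit).

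The same loci were then read in separated mice, which share no library with the C groups, although the cluster was chosen with earlier results of both known. In Tph2+/- MS against Tph2+/+ MS, also 8 against 8 libraries, the 13 mirrored loci again all had a negative log2FC (median -0.69, where 51.2% of all loci were lower), and their summed CPM was 30.2, 34.3 and 41.6 against 44.4, 50.01 and 56.2, without overlap. The 6 tandem loci Gm9040 to Gm9049 were also all lower in Tph2+/- MS, with a median log2FC of -0.44. Their summed CPM was 49.2, 51.01 and 61.8 against 62.96, 74.75 and 82.1, also without overlap. The Gm32802 exon locus had a log2FC of -0.72 (unadjusted p = 2.27e-04) and the Gm32717 start locus -0.76 (unadjusted p = 4.82e-05) in the edgeR fit of the MS libraries. The Gm32802 start locus was the 1 locus of all tested, 0.000533%, that passed the adjusted limit among separated mice (log2FC -1.01, SE 0.17, edgeR adjusted p = 0.0332). It is the partner of the Gm32717 start locus that passed in C, and reads may be placed on either of these copies. The groups did not overlap there (17 loci, 0.00906%, were lower in this way), with 3.53 to 6.71 CPM in Tph2+/+ MS and 1.86 to 3.05 CPM in Tph2+/- MS.

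Mice without any working Tph2 allele had still lower counts at the mirrored block. The Tph2-/- C libraries share the Tph2+/+ C libraries as their reference, so the values stand side by side and are no second test. Their summed CPM over the 13 loci was 12.7, 15.5 and 17.97, with a median at 30.9% of the wildtype median, and all 8 heterozygous libraries lay above the highest of them. The median log2FC of the 13 loci was -2.04 in Tph2-/- C against Tph2+/+ C, with 12 of 13 at an edgeR adjusted p under 0.05 (0.0112% of all loci), and -1.35 in Tph2-/- C against Tph2+/- C, with 5 of 13 (0.00266% of all loci). At the Gm32717 start locus the Tph2-/- C libraries ranged from 0 to 1.15 CPM. The tandem loci Gm9040 to Gm9049 were lower as well, with the Tph2-/- C median of their summed CPM at 56.5% of the wildtype median. Their median log2FC against Tph2+/+ C was -0.73, with 5 of 6 at an edgeR adjusted p under 0.05. That limit was also passed by 1 of the 12 other cluster loci and by 3 of 485 loci between Tph2 and Il22.

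**Figure D2:**
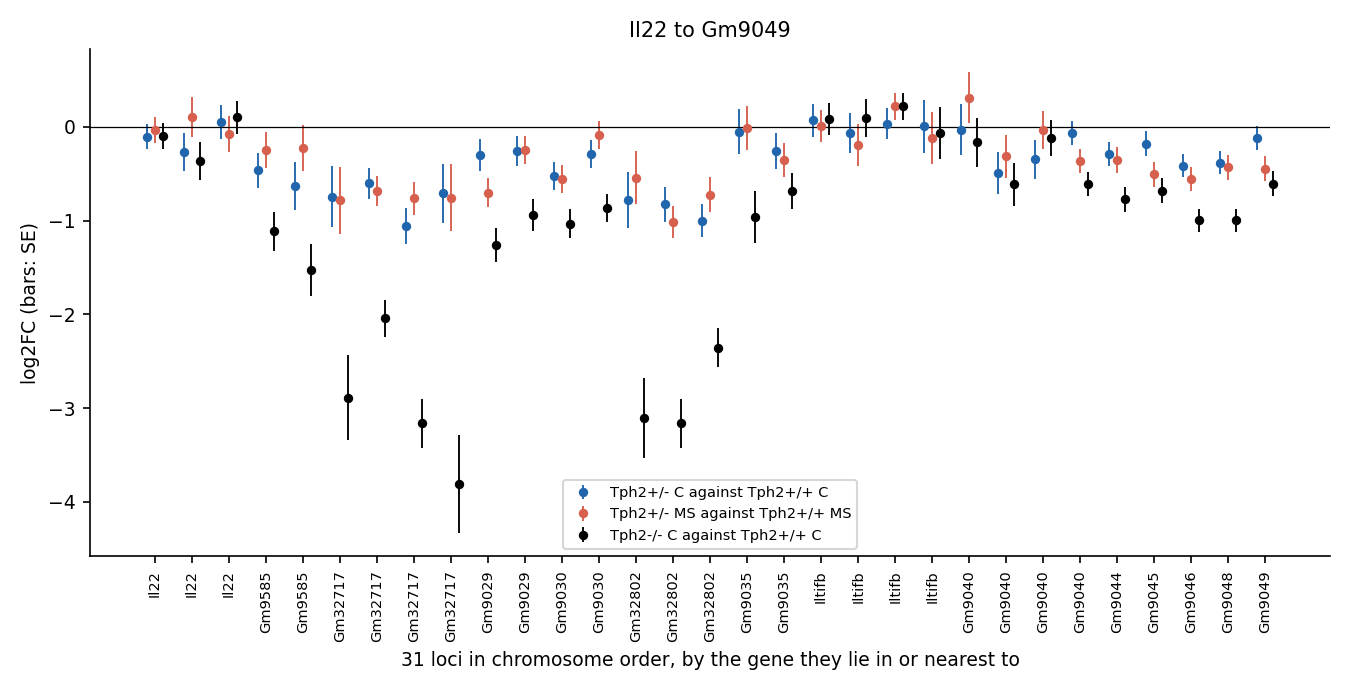
The log2FC with its SE (y axis) of the 31 loci from Il22 to Gm9049 in chromosome order (x axis, labelled by gene) for Tph2+/- C against Tph2+/+ C (blue), Tph2+/- MS against Tph2+/+ MS (red) and Tph2-/- C against Tph2+/+ C (black). Values dip at the mirrored pseudogenes and at Gm9040 to Gm9049 and return to about 0 at Il22 and Iltifb, with the black points lowest at Gm32717 and Gm32802.

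No difference was detectable at Tph2 itself at this depth. The 15 loci inside the gene (chr10:115078641-115185022, minus strand) had 0 calls at the study limits and 0 with an unadjusted p under 0.05, the smallest being 0.0731 in the edgeR fit. Their log2FC ranged from -0.13 to 0.41. Summed over the gene the libraries had 36.99, 38.6 and 45.2 CPM in Tph2+/+ C and 33.9, 42.7 and 45.99 CPM in Tph2+/- C, and the 2-sided exact permutation test on log2 CPM gave p = 0.465. Methylated DNA does not show whether an allele is working, so these values are no check of the genotype labels.

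The locus past the study limits that was nearest to the gene lay 5002 bp downstream of Tph2 (chr10:115072171-115073639). It had 2.77, 3.27 and 4.87 CPM in Tph2+/+ C and 1.59, 2.33 and 2.99 CPM in Tph2+/- C (log2FC -0.59, SE 0.19, unadjusted p = 0.00202 in the edgeR fit). In MS the log2FC was -0.34 (unadjusted p = 0.0714) and in Tph2-/- C -0.58. The stretch with the most CpG (chr10:115073258-115073457, minus strand) holds 9:
Downstream of Tph2: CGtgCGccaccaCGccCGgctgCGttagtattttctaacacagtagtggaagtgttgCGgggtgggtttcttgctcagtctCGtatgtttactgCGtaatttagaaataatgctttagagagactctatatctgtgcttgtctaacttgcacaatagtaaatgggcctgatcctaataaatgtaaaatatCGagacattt

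Within 10 Mb of Tph2 there were 1900 loci, of which 28 (1.47%) passed the study limits, against 0.678% of all loci. There were 14 in each direction, and 7 of the lower ones lay between Il22 and Gm9049. Outside the cluster 21 of 1869 passed (1.12%), and the median log2FC of the 1869 loci was 0.01. Only 1 of the 1900 loci had groups without overlap, against 16 of all loci (0.00852%). This was chr10:117489588-117491151, which lies 28794 bp downstream of Gm51783. Its values were 5.73, 6.23 and 8.19 CPM in Tph2+/+ C against 3.98, 4.48 and 5.59 CPM in Tph2+/- C (log2FC -0.48, SE 0.14, unadjusted p = 7.4e-04 in the edgeR fit). It was lower in MS as well, with a log2FC of -0.31 (unadjusted p = 0.0498), and in Tph2-/- C the log2FC was -0.99. The locus is 83.5% repeat-masked and had 39 similar stretches elsewhere in the genome.

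**Figure D3:**
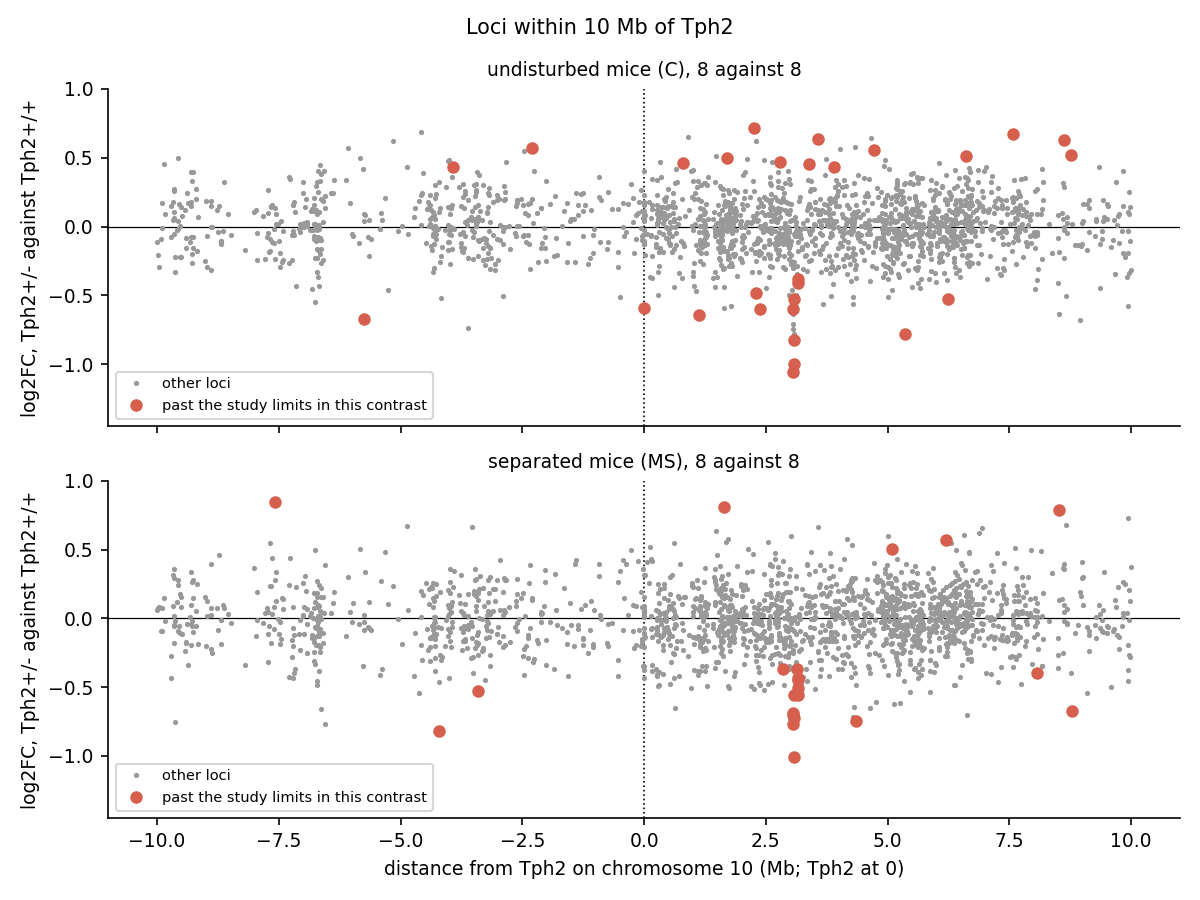
The log2FC of Tph2+/- against Tph2+/+ (y axis) for the 1900 loci within 10 Mb of Tph2 by their distance from the gene (x axis, Mb), in C above and MS below; red points are past the study limits in that contrast. In both panels the lowest red points stand together near 3 Mb, at the pseudogene cluster.

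Across the genome 1272 loci (0.678%) passed the study limits, 630 higher (0.336%) and 642 lower (0.342%) in Tph2+/- C, with a median absolute log2FC of 0.60. The split depended on scaling: 49.5% of the calls were higher with TMM, and with total counts alone 11.7% of 1704 calls were, where the median of all loci moved from 0.01 to -0.06. The unadjusted p of the edgeR fit was 0.00999 at the last locus inside the limits (log2FC 0.37) and 0.01 at the first outside (log2FC -0.57). Of the 1272 loci, 2 passed the adjusted limit. In counts simulated for the 16 libraries, 1760 of 187495 unchanged loci passed the same study limits, more than the 1272 in the data. The simulation took its spread from a trend over all loci, so its rate need not be that of the data. A single call at the study limits cannot be told from chance here. Of 100 simulated loci with a log2 change of 0.5, 7 passed the adjusted limit. With a change of 1 it was 70 of 100, and 1 unchanged locus passed. The typical locus had 27.1 counts per library and an SE of 0.21, which is the precision that 8 libraries of this depth gave. The share of calls was similar by position, at 0.596% of loci before a gene start, 0.683% in coding exons, 0.741% in other exons, 0.681% in introns and 0.68% between genes.

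The calls made in undisturbed mice were for the most part not seen in separated mice. Of the 1272 loci, 593 (46.6%) had the same direction in MS, against 48.8% of all loci, and 29 (2.28%) also had an unadjusted p under 0.05 there, against 1.87% of all loci, while 3.77% of all loci had such a p in either direction. All 7 loci of the Il22 to Gm9049 cluster were among the 29. Outside 10 Mb of Tph2 the count was 20 of 1244 (1.61%). At the study limits, 1168 loci (0.622%) passed in MS on its own.

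**Figure D4:**
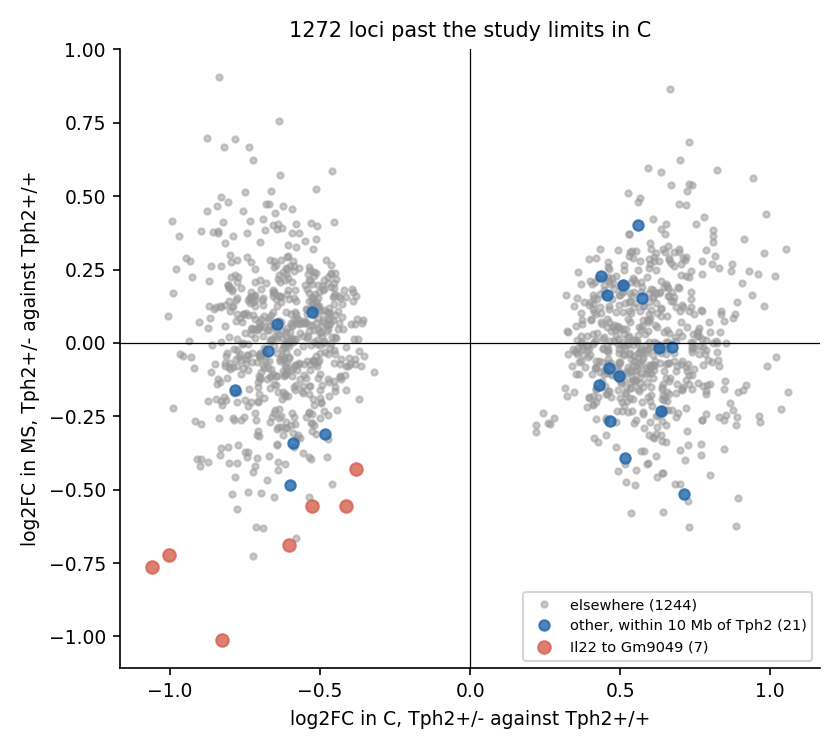
The log2FC in C (x axis) and in MS (y axis) of the 1272 loci past the study limits in C, with the 7 loci from Il22 to Gm9049 in red, 21 others within 10 Mb of Tph2 in blue and the 1244 elsewhere in grey. The red points lie in the lower left, while the grey points spread above and below 0 in MS on both sides.

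The difference between the C and MS steps was tested for each locus in one edgeR fit of 32 libraries. It passed the adjusted limit at 0 loci, with 7461 (3.98%) at an unadjusted p under 0.05 and 1275 (0.679%) past the study limits. No named locus is therefore shown to differ between C and MS.

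Among loci in or within 10000 bp of a protein-coding gene, with a mean count of 10 or more, 10 were named in each direction by their smallest p. Of these 20 loci, 5 had groups without overlap, against 16 of all loci (0.00852%). Because the p came from the same libraries, this lack of overlap follows from the choice and is no separate result. Slc39a11, a zinc transporter gene, held the higher locus of smallest p, in an intron. It had 1.55, 1.98 and 3.29 CPM in Tph2+/+ C and 2.44, 3.87 and 5.10 CPM in Tph2+/- C (log2FC 0.81, SE 0.19, unadjusted p = 3.27e-05 in the edgeR fit), and in MS the unadjusted p was 0.997.

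Zfp407, a zinc finger gene, was higher at a locus in an intron, with 1.38 to 2.44 CPM in Tph2+/+ C and 2.95 to 4.22 CPM in Tph2+/- C, without overlap (log2FC 0.73, SE 0.19). Afap1l2, the gene of an actin filament-associated adaptor, had 1.32 to 2.44 CPM against 2.73 to 5.10 CPM in an intron (log2FC 0.72, SE 0.19). Thsd4, which encodes a protein of the extracellular matrix, had 2.20 to 3.529 CPM against 3.531 to 5.85 CPM, a gap in the third decimal only (log2FC 0.63, SE 0.17). Fetub, the gene of the liver-secreted protease inhibitor fetuin B, was higher over a coding exon, at 3.89 to 5.07 CPM against 5.33 to 8.51 CPM (log2FC 0.50, SE 0.14). The other 5 higher loci were in or near Map4k4, Otulin, Cdk5rap2, Slco1a5 and Hao1, with log2FC from 0.51 to 0.83.

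The lower loci were led by Tmcc3, which codes for a membrane protein of the endoplasmic reticulum. Its locus in an intron had 1.78, 2.95 and 4.42 CPM in Tph2+/+ C and 1.28, 1.60 and 2.17 CPM in Tph2+/- C (log2FC -0.84, SE 0.21, unadjusted p = 1.5e-04 in the edgeR fit). Tbc1d10a, whose protein acts on Rab GTPases, was the lower one without overlap, over a coding exon, with 3.893 to 6.46 CPM against 2.283 to 3.891 CPM, again a gap in the third decimal (log2FC -0.62, SE 0.16). Hs6st3, a heparan sulfate sulfotransferase gene, was lower in C (log2FC -0.74, SE 0.20) and also in MS (log2FC -0.51, unadjusted p = 0.00659 in the edgeR fit). The other 7 were in or near Lyrm9, Syk, Def6, Gm572, Fam221a, Mgst1 and Spg7, with log2FC from -0.68 to -0.95.

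Hs6st3 was the only 1 of the 20 with the same direction and an unadjusted p under 0.05 in MS. Otulin, which encodes a deubiquitinase, was higher in C (log2FC 0.64, SE 0.17) and lower in MS (log2FC -0.44, unadjusted p = 0.0175), and the difference had an unadjusted p of 2.8e-05 and an edgeR adjusted p of 0.9999. All 20 loci had an edgeR adjusted p of 1 in C. In Tph2-/- C, with the same Tph2+/+ C libraries as reference, the log2FC at Hs6st3 was -0.14 (unadjusted p = 0.41 in the edgeR fit). The log2FC in Tph2-/- C ran from -0.43 to -0.03 over the lower loci and from 0.23 to 0.72 over the higher loci.

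**Figure D5:**
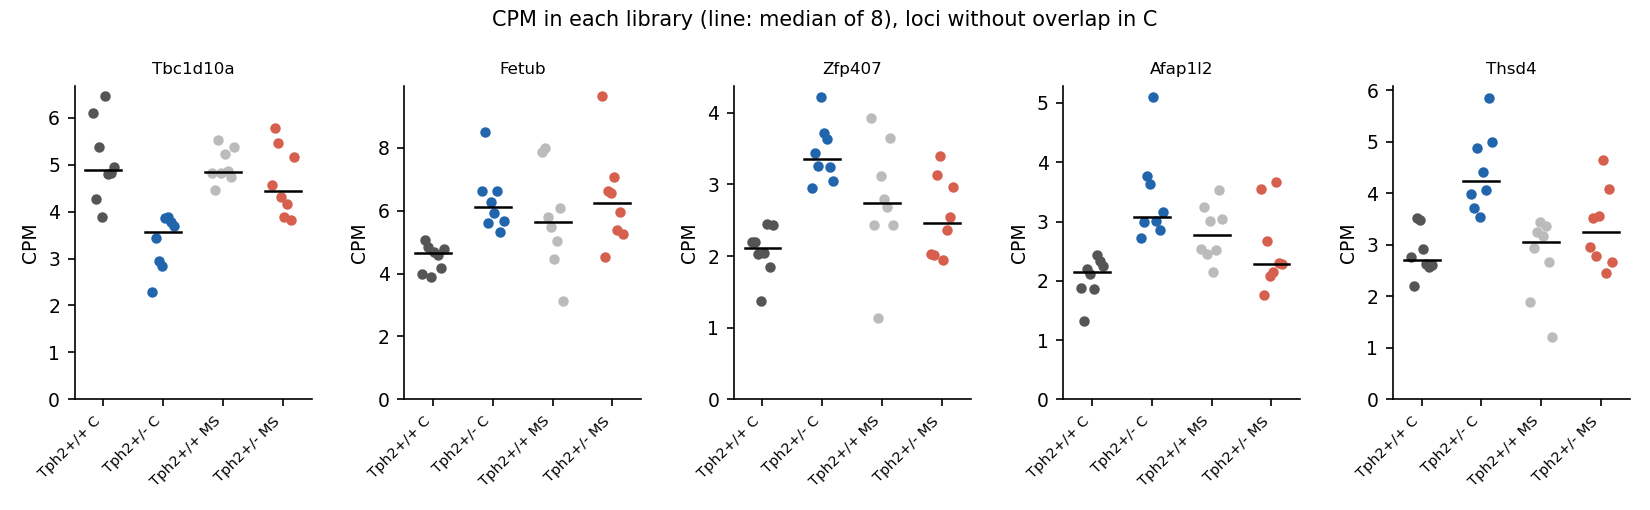
CPM per library (y axis, from 0) at the 5 loci in Tbc1d10a, Fetub, Zfp407, Afap1l2 and Thsd4 in the groups on the x axis, with points for mice and lines for medians. The 5 loci are shown because their Tph2+/+ C and Tph2+/- C points do not overlap, so this gap is given by the choice. The Tph2+/+ MS and Tph2+/- MS points, which did not choose the loci, overlap in all 5 panels. No locus passed the adjusted limit for a difference between C and MS.

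Genes of the 5-HT system, of stress and of brain cell types were read through 18 lists with 320 genes, of which 47 had no locus inside or up to 2000 bp before their start. The others held 2261 loci, and 15 (0.663%) passed the study limits, 6 higher and 9 lower, where 0.678% of all loci did. The count was not stable: it was 24 without Tph2+/- C replicate 5, 26 with limma voom, 24 with total counts alone, 9 at a mean count of 20 or more and 7 in the fit of 46 libraries. Including the 15, 113 of the 2261 loci had an unadjusted p under 0.05, 57 of them higher. This is a larger share than the 3.78% of all loci, and 0 passed the adjusted limit. None of the 15 was seen again in MS with the same direction and an unadjusted p under 0.05. The counts of single lists below stand beside the same shares of all loci, 0.678% at the study limits and 3.78% at an unadjusted p under 0.05.

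For the synthesis, transport and breakdown of 5-HT, 1 of 108 loci (0.926%) passed the study limits, where 0.678% of all loci did. It lay in an intron of Gata3, a transcription factor gene needed by 5-HT neurons, with 1.86, 2.56 and 3.29 CPM in Tph2+/+ C and 0.981, 1.48 and 2.61 CPM in Tph2+/- C (log2FC -0.61, SE 0.22, unadjusted p = 0.00608 in the edgeR fit). Of 49 loci at 5-HT receptor genes 0 passed the study limits and 2 had an unadjusted p under 0.05 in the edgeR fit, with the smallest p at Htr1d (log2FC -0.50, SE 0.21). The stress axis list had 0 of 81 loci past the limits and 5 with an unadjusted p under 0.05 in the edgeR fit, with the smallest p at Crhr2, a corticotropin-releasing hormone receptor gene (log2FC 0.66, SE 0.27).

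Among peptides of the amygdala, 0 of 96 loci passed the study limits and 4 had an unadjusted p under 0.05 in the edgeR fit, led by Ntsr1, a neurotensin receptor gene (log2FC -0.49, SE 0.20). Oxytocin and vasopressin genes had 0 of 19 and 1, at Oxtr, the oxytocin receptor gene (log2FC -0.45, SE 0.21). Opioid and endocannabinoid genes had 0 of 82 and 3, led by Penk, the enkephalin precursor gene (log2FC -0.41, SE 0.16).

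Transmitter genes gave 4 calls, where 0.678% of all loci passed. The shares were 0.877% of loci in the GABA list, 0.509% in the glutamate list and 1.15% in the dopamine and noradrenaline list. At an unadjusted p under 0.05 in the edgeR fit these lists had 7, 22 and 5 loci, of which 4, 17 and 3 were higher. Gabbr2, a subunit of the GABA-B receptor, was higher in an intron, at 0.733, 1.41 and 2.11 CPM in Tph2+/+ C against 1.63, 2.30 and 3.12 CPM in Tph2+/- C (log2FC 0.69, SE 0.24, 1 of 114 loci of the GABA list). Grik4, a kainate receptor subunit, held both calls of the glutamate list (2 of 393 loci), with log2FC of 0.51 (SE 0.17) over a coding exon and 0.44 (SE 0.16) in an intron. Drd3, the D3 dopamine receptor gene, was lower in an intron (log2FC -0.70, SE 0.26, 1 of 87 loci).

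The axon guidance list had 6 of 694 loci (0.865%) past the limits, near the 0.678% of all loci. Slit3, the gene of a secreted guidance ligand, was higher at a locus that also spans the microRNA gene Mir218-2 inside it (log2FC 0.89, SE 0.27), and so was the receptor gene Ephb1 in an intron (log2FC 0.54, SE 0.19). The receptor genes Plxnc1 (log2FC -0.84), Ephb2 (-0.52) and Robo3 (-0.50) and the ligand gene Sema3d (-0.74) were lower. Members of 1 receptor family thus had calls in both directions.

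Of the DNA methylation machinery, 1 of 86 loci (1.16%) was past the limits, where 0.678% of all loci were. It lay in an intron of Uhrf1, whose protein guides maintenance methylation to newly made DNA (log2FC -0.55, SE 0.21). Imprinted genes had 1 call (0.633% of their loci), in Usp29 (log2FC -0.74, SE 0.27). Growth factor and immediate early genes had 1 of 68 (1.47%), over a coding exon of Fosl2 (log2FC 0.48, SE 0.15). Of the cell type lists, microglia had 1 of 28 loci (3.57%) past the limits, at Itgam (log2FC -0.62, SE 0.20). The lists for neurons (62 loci), astrocytes (37), oligodendrocytes (44) and vascular cells (91) had 0. At an unadjusted p under 0.05 in the edgeR fit these 4 lists had 3, 2, 3 and 6 loci. At the 2 loci that the study assigned to Cck and A830073O21Rik the log2FC in C was -0.38 (unadjusted p = 0.159) and -0.26 (unadjusted p = 0.122) in the edgeR fit.

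Calls on the sex chromosomes leaned one way. On the Y chromosome 28 of 2673 loci passed the study limits (1.05%), 27 of them higher in Tph2+/- C, with a median log2FC of 0.06 over all its loci, and on the X chromosome 17 of 3073 (0.553%), 14 of them higher (median 0.05). With all loci in 4 classes by repeat-masked share, the median log2FC was 0.03 in the most masked class and -0.01 in the least masked class. In MS the medians of Y and X had the other sign (-0.05 and -0.04), and so they had in C with library totals in place of TMM (-0.01 and -0.02). Without the libraries numbered S42 and later the medians in C were 0.01 on Y and -0.01 on X, and without Tph2+/- C replicate 7 alone the Y median was 0.01. The share of counts on Y per library had an exact permutation p of 0.414 (2-sided) between the groups.

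The 16 libraries held 7.72 to 12.99 Mcounts (1 Mcount is 1e6 counts), with 9.93 ± 1.66 (SD, n = 8) in Tph2+/- C and 11.3 ± 0.824 (SD, n = 8) in Tph2+/+ C, a difference with a 2-sided exact permutation p of 0.0542. A single locus on chromosome 9 made up between 17.4 and 24.97% of each library, and its mean share was 21.4% in Tph2+/- C and 19.4% in Tph2+/+ C (exact permutation p = 0.0230, adjusted p = 0.161 over 7 library measures). The slope of counts on CpG density differed by 0.00721 (exact permutation p = 0.727). Replicates 7 and 8 of both groups carried later library numbers, S45 to S48, than the others, S2 to S17. Among the early numbers (6 against 6) the 13 mirrored loci had a median log2FC of -0.57 and all 13 were lower, and among the late numbers (2 against 2) it was -0.72 with 10 lower.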

How the data were processed

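Counts were used as deposited. The authors sheared amygdala DNA, captured it with an MBD protein, sequenced pairs of reads, mapped them with Bowtie2 2.1.0 to GRCm38, called peaks with MACS, merged them and counted reads per merged peak with DiffBind 2.0.9, which gave the deposited raw counts per locus. How reads of repeated sequence and duplicate reads were treated is not given in the sources used here. Each of the 48 columns was matched to its sample through the labels (0 columns unmatched). Of the counts above 0, between 55.01 and 71.6% were even numbers, and the cause was not tested. No 2 libraries of either C group were alike within counting error (chi-square per locus 2.05 to 3.43 over 56 pairs).

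Tests used edgeR 4.0.16 in R 4.3.3 on these counts (TMM, trended dispersion, robust quasi-likelihood, 2-sided) over all 187695 loci, fitted on the 16 libraries compared; the interaction was fitted on 32. SE is the log2FC divided by the square root of F. CPM values were scaled by TMM over all 48 libraries. Exact permutation tests ran over all 12870 regroupings. Loci were placed by the RefSeq annotation of GRCm38, promoters (2000 bp before a gene start) before exons and exons before introns. Named loci were those in Tph2, those at an adjusted p under 0.05, the 10 of smallest p in each direction past the study limits near protein-coding genes with a mean count of 10 or more, the smallest p of each gene list, up to 8 past the limits within 10 Mb of Tph2, and 2 loci of the study; the locus set from Il22 to Gm9049, Cdc5l, the sex chromosome and repeat classes and the other calls inside the gene lists were chosen after their values were seen. Members and gene lists were chosen with earlier results of these data known. Copies were sought with minimap2 2.31. Alternatives were DESeq2 1.42.0, limma 3.58.1 voom, other normalisations and offsets, a low-count filter, other sets of libraries and the replicate number as a block. The study left out 2 Tph2-/- MS libraries without naming them. The fit of 46 libraries left out the 2 of that group with the lowest totals, which may not be the same ones. The script was tested on simulated data.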

Additional observations from a re-analysis of the deposited data

Results flagged for a closer look

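In groups of 8 libraries a value was singled out when its gap to the nearest other value took an unusually large part of the whole range (Dixon's 95% limit). Chance alone does so in about 1 group in 20, and 13 of 144 groups of values met it. The widest gap relative to the range was in the summed CPM of the 13 loci at Gm9585 to Gm9035, where Tph2+/+ C replicate 2 had 33.3 CPM and the next library 47.8.

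Inside Tph2, Tph2+/+ C replicate 4 was high at chr10:115100968-115101514 (2.51 CPM) and low at chr10:115145641-115146396 (0.973 CPM), replicate 1 was low at chr10:115161977-115162692 (0.896 CPM), and Tph2+/- C replicate 7 was low at chr10:115109540-115110593 (1.43 CPM). In Tph2+/- C, single libraries were high at Afap1l2 (5.10 CPM, replicate 5), Fetub (8.51 CPM, replicate 2), Plxnc1 (2.04 CPM, replicate 3), Gm9030 (6.20 CPM, replicate 5) and the locus assigned to Cck (2.85 CPM, replicate 4). In Tph2+/+ C, single libraries were high at Htr1d (4.13 CPM, replicate 6) and Oxtr (4.40 CPM, replicate 1) and low at Itgam (1.45 CPM, replicate 7). No named locus had an adjusted p under 0.05 for the difference between C and MS.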

How the results depend on the processing

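The 2 loci at an adjusted p under 0.05 fell to 0 with DESeq2, with limma voom, in the edgeR fit of 46 libraries and in that without the libraries numbered S42 and later (7201, 7775, 5915 and 7285 loci at an unadjusted p under 0.05), and leaving out 1 library at a time gave 0 to 2, with 0 without Tph2+/+ C replicates 4, 5, 6 or 7 or Tph2+/- C replicates 1, 2, 5 or 8 and 1 without Tph2+/+ C replicates 3 or 8 or Tph2+/- C replicates 4, 6 or 7. The log2FC of both stayed between -0.89 and -1.25. The 1272 loci past the study limits moved by less than 1.5 times in all settings (1115 to 1421 without 1 library), but 543 of the 1291 found without S42 and later were shared with them. With total counts alone 11.7% of 1704 calls were higher, against 49.5% of 1272 with TMM, and the median of all loci moved to -0.06. Loci within 10 Mb of Tph2 numbered 24 to 33 (21 to 31 without 1 library). The 15 gene list calls became 26 with limma voom, 24 with total counts alone, 9 at a mean count of 20 or more and 7 with 46 libraries, and 15 to 24 without 1 library, with 24 without Tph2+/- C replicate 5. The 29 calls seen again in MS became 19 at a mean count of 20 or more, and 2 at an adjusted p under 0.05. The difference in total counts was -1.28 Mcounts without loci over 0.5% of counts (exact permutation p = 0.0364). Over the other settings no named locus past the limits reversed, and there were 15 cases of a named locus losing and 14 of one reaching the study limits. Replicate numbers did not pair the samples (correlations from -0.05 to 0.05), and the replicate block gave 1231 loci past the study limits, 2 at an adjusted p under 0.05, 21 in the gene lists, 31 within 10 Mb of Tph2 and 25 seen again in MS. The causes of these changes were not tested. At a median of 27.1 counts per library the median SE of the log2FC was 0.21.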
